A study of Mus musculus with 9 samples.

Results

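The genes of the RNA m6A machinery were examined in mouse round spermatids (RS), the haploid germ cells that follow the meiotic divisions. The 10 members were taken by symbol from the table of 55414 genes: the erasers Fto, Alkbh5 and Alkbh1, the writers Mettl3, Mettl14 and Wtap, and the readers Ythdc1, Ythdc2, Ythdf2 and Ythdf3. All 10 were found, and all 10 were among the 25128 genes with enough reads to be tested. The rule that picks them uses gene symbols and no measured value, but the members were chosen with earlier results of these data known.

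The RS cells came from testes of adult mice in which Stra8-iCre, active from the spermatogonial stage, switches on a tdTomato reporter under the CAG promoter, and they were sorted by falling tdTomato signal and by cell size. The labels give the genotype as WT. After sorting, the cells were kept in culture for 24 h. Control cells received vehicle, another group oxamate at 24 mM, and the last group the same dose of oxamate together with octyl-L-2HG at 0.3 mM, and every group, controls included, received 0.15% DMSO and medium with lactate and pyruvate. Each group had 3 polyA-selected libraries, here vehicle 1 to 3, oxamate 4 to 6 and oxamate with octyl-L-2HG 7 to 9. The paper describes triplicate incubations, but the labels do not say whether the libraries of a group came from separate mice or cell preparations. The p-values therefore measure the spread between these samples, which may be technical.

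m6A is a methyl group on adenosine inside messenger RNA. METTL3 adds it, in a heterodimer with METTL14, which helps to hold the RNA, and WTAP anchors the pair in a larger complex. Proteins with a YTH domain bind the mark: YTHDC1 in the nucleus, the YTHDF paralogs in the cytoplasm, where they are linked to turnover and translation of bound transcripts, and YTHDC2, an RNA helicase that male germ cells need to go through meiosis. FTO and ALKBH5 remove methyl groups from adenosine, and male mice without ALKBH5 are known to have defective spermatogenesis. ALKBH1 belongs to the same family and is known mainly for other substrates, such as transfer RNA. All 3 are iron-dependent dioxygenases that use alpha-ketoglutarate. L-2HG is structurally close to alpha-ketoglutarate and can inhibit enzymes of this class. Oxamate inhibits lactate dehydrogenase, which can make L-2HG, and octyl-L-2HG is a cell-permeable ester of it. The comparisons below ask whether lowering L-2HG with oxamate, and giving it back, went with other transcript levels of these genes. Enzyme activity and m6A itself were not measured in these libraries.

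The YTHDF paralogs are close relatives, so the sequences they share bear on whether their reads can be told apart. The longest stretch that each pair of their transcripts has in common, from the GENCODE M21 mouse transcripts, lies in the coding sequence of both genes. It is given in lower case throughout, since every base is shared.

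Ythdf1 and Ythdf2: attgctagcaagcctgcaaaac

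Ythdf1 and Ythdf3: aagagctattctgagga

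Ythdf2 and Ythdf3: atattggaacttgggat

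The first run holds 22 bases, from base 948 of the Ythdf1 transcript and base 1101 of the Ythdf2 transcript. The other runs hold 17 bases each. No window of 75 bases of Ythdf1 or Ythdf3 occurred in a transcript of another gene, and 3.75% of the windows of Ythdf2 did, all in the pseudogenes Gm6823 and Gm8401, which were listed at 0 in every library. Shared windows made up 1.62% of Fto, 6.68% of Wtap, 11.4% of Mettl3 and 17.6% of Ythdc1, and none of Alkbh5, Alkbh1, Mettl14 or Ythdc2. Those of Ythdc1 fell in Gm43055, which overlaps it on the same strand and had 0 to 1 reads per library. Low counts of such genes cannot show where the shared reads went, since counting may leave out reads that match several genes. Those of Mettl3 fell in Tox4, whose exons run against those of Mettl3 over 933 bases and which had 2325 to 3175 reads per library, against 228 to 342 for Mettl3. Exons of Alkbh1 overlap those of Slirp on the opposite strand by 122 bases. The kit kept strand, but the strand setting of the counting is not given in the sources used here, so the Mettl3 and Alkbh1 values are uncertain to that extent.

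The libraries held 32339533 to 39888396 counted reads. Oxamate library 4 stood apart from the other 2 of its group. The chi-square per degree of freedom between replicates was 16.7 and 20.7 for the pairs with library 4 and 1.98 for libraries 5 and 6, and it ranged from 2.27 to 10.7 within the other groups. In vehicle it was 10.7 and 10.1 for the pairs with library 1, and 5.86 for libraries 2 and 3. What leaving out oxamate library 4 changes for the members is given beside their values or after the last member. All 10 markers of round spermatids were detected, with a summed level of 6486 to 7172 CPM (counts scaled to a library of 1000000 reads) in vehicle, 5918 to 6844 in oxamate and 5872 to 6191 in oxamate with octyl-L-2HG. Of these 10, Tnp1, Tnp2, Prm1 and Prm2, which serve the packing of sperm DNA, were called lower in every comparison. In oxamate with octyl-L-2HG against vehicle, Tssk1 was also lower, Acrv1 and Acr were higher, and the other 3 were not called. The 6 spermatogonial markers summed to 5.32 to 5.87 CPM in vehicle, 6.53 to 6.86 in oxamate and 6.22 to 6.54 in oxamate with octyl-L-2HG. Gfra1 held most of these reads (1328 over all libraries), and none of the 6 was called in any comparison. With oxamate, Gfra1, Kit and Stra8 lay above vehicle and Zbtb16, Dmrt1 and Sall4 below it. The 6 spermatocyte markers summed to 148 to 181 CPM, and the 5 Sertoli markers to at most 0.214 CPM. The endothelial markers summed to 12.1 to 13.3 CPM in vehicle, 11.2 to 11.7 in oxamate and 8.15 to 9.61 in oxamate with octyl-L-2HG. This sum was mostly Vwf, with 3243 reads over all libraries, against 249 for Pecam1 and 184 for Cdh5. In oxamate with octyl-L-2HG against vehicle, Vwf was called lower (-0.52 on the log2 scale, edgeR adjusted p = 0.000447). Pecam1 (0.18) and Cdh5 (-0.70) were not called there. No marker was at 0 in all libraries, and the part of other cells in the results was not tested.

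In vehicle-treated RS cells the members covered a wide range of levels. Per kilobase of the longest coding transcript, Ythdc1 was the most abundant member, at 31.96 ± 3.52 CPM per kb (SD, n = 3), followed by Fto at 23.9 ± 0.927 and Alkbh5 at 8.83 ± 0.559. Ythdf2 stood at 3.48 ± 0.178, Mettl3 at 3.39 ± 0.271 and Ythdf3 at 2.94 ± 0.160 CPM per kb. Alkbh1 had 1.44 ± 0.213, Ythdc2 1.12 ± 0.165, Wtap 1.02 ± 0.0582 and Mettl14 0.722 ± 0.0652 CPM per kb, the last close to the median of 0.734 over the 25027 tested genes with a known length. The libraries of Ythdf2 overlapped those of Mettl3, and those of Ythdc2 overlapped those of Wtap. The other neighbours in this order did not overlap, although Mettl3 and Ythdf3, and Alkbh1 and Ythdc2, came close to it. Ythdc1, Fto, Alkbh5, Ythdf2, Mettl3 and Ythdf3 held the same first 6 places in all 3 groups. The order at the top depended on the length used: divided by all annotated exon bases, Fto had 8.62, Alkbh5 8.45 and Ythdc1 7.65 CPM per kb in vehicle, with overlapping libraries. Among the writers, Mettl3 thus had a higher level per length than its partner Mettl14, with a ratio of 4.72 ± 0.592 in vehicle on the transcript length; divided by all exon bases the levels were 1.35 and 0.70 CPM per kb.

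**Figure D1:**
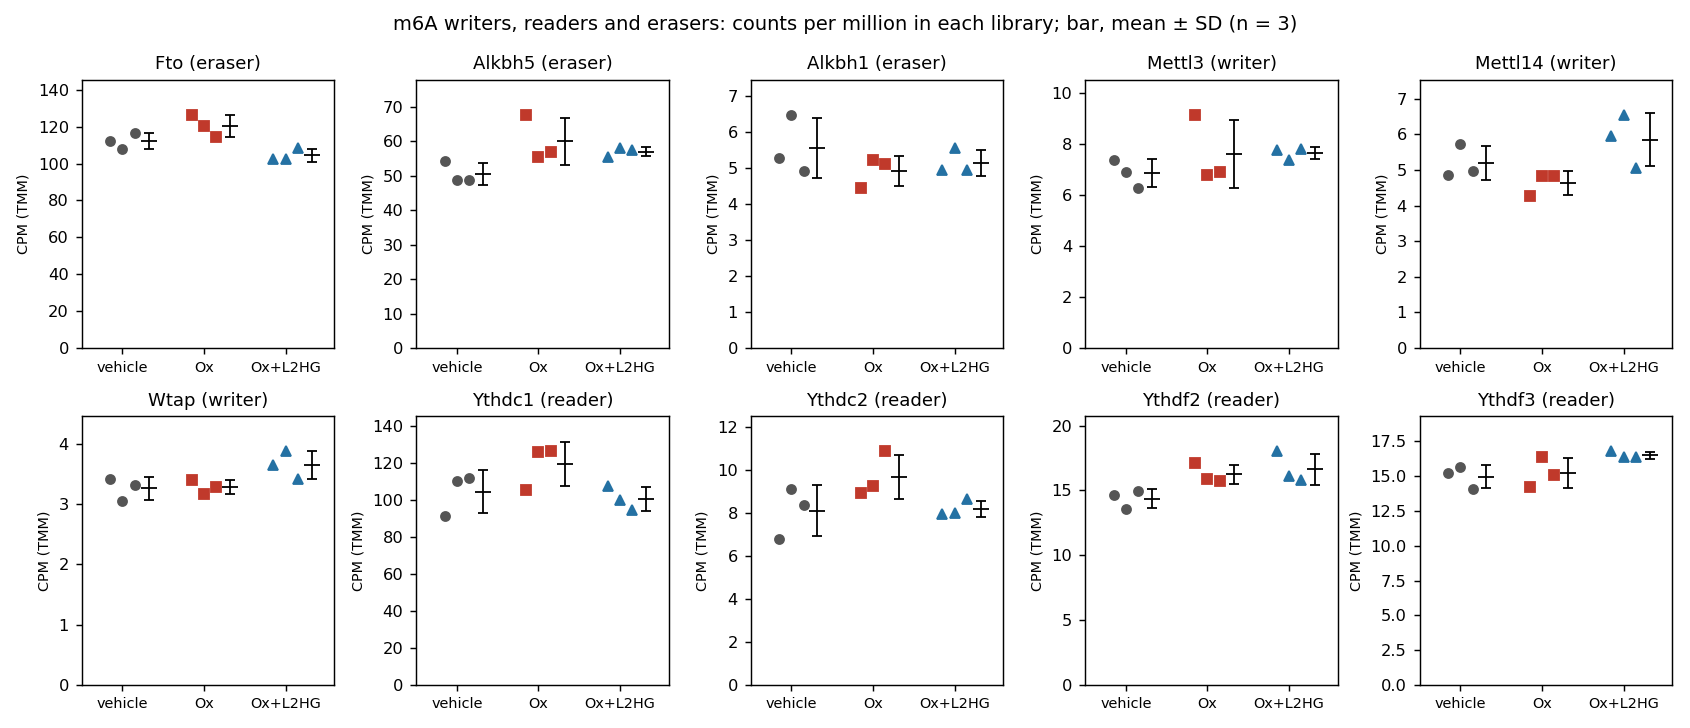
Levels of the 10 m6A genes in CPM (y axes start at 0, one scale per gene) in the 9 libraries; points are libraries (left to right 1 to 9), and the bars beside them show mean ± SD of 3 libraries for vehicle, oxamate (Ox) and oxamate with octyl-L-2HG (Ox+L2HG). Fto lies lower in all 3 libraries with octyl-L-2HG (102 to 108 CPM) than in the 3 oxamate libraries (114 to 126 CPM), while Alkbh5 and Mettl3 show oxamate library 4 above the other 2.

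Differences between the groups were small for all members and passed the test for Fto in the comparison of oxamate with octyl-L-2HG against oxamate. Each fold change below is on the log2 scale with its standard error (SE), from edgeR's quasi-likelihood test over the 25128 genes, with Benjamini-Hochberg adjustment and a threshold of 0.05. For oxamate against vehicle, 0 of 10 members were raised and 0 lowered, where 3.96% of all genes tested were raised and 1.22% lowered. At an unadjusted p under 0.05, 4 members lay higher in oxamate (Alkbh5, Ythdc1, Ythdc2 and Ythdf2) and 0 lower, against 17.3% of all genes in either direction. DESeq2 called 0 members and gave 2 at an unadjusted p under 0.05. The median log2 fold change was 0.13 over the members, -0.01 over all genes tested and 0.01 over the 10740 genes with a mean of at least 100 normalized counts.

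For oxamate with octyl-L-2HG against oxamate, 0 members were raised and 1, Fto, was lowered, where 3.18% of all genes were raised and 8.06% lowered. At an unadjusted p under 0.05 there were 4 members, Mettl14 higher and Fto, Ythdc1 and Ythdc2 lower, against 23.6% of all genes. DESeq2 also called Fto alone and gave 3 members at that p. The members' median log2 fold change was 0.02, beside -0.04 over all genes tested and 0.01 over those with a mean of at least 100 normalized counts. For oxamate with octyl-L-2HG against vehicle, edgeR called 0 members in either direction, where 7.48% of all genes were raised and 10.6% lowered. At an unadjusted p under 0.05, 2 members (Alkbh5 and Ythdf2) lay higher, against 30.0% of all genes, and DESeq2 called 0 and gave 2 at that p. The median was 0.15, beside -0.05 over all genes tested and 0.03 over those with a mean of at least 100 normalized counts.

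In the test for any difference among the 3 groups, edgeR called 0 of 10 members and DESeq2 called 1, Alkbh5, where edgeR called 19.8% of all genes. At an unadjusted p under 0.05, edgeR gave 5 members (Fto, Alkbh5, Mettl14, Ythdc1 and Ythdf2), against 31.5% of all genes. The groups of 3 libraries did not overlap for 3 members in oxamate against vehicle, for 4 in oxamate with octyl-L-2HG against oxamate, and for 4 in oxamate with octyl-L-2HG against vehicle. Over all genes tested the corresponding shares were 21.4%, 28.1% and 36.1%. The members' shares lay near these backgrounds. The comparisons share libraries, so their values for a gene are not independent of each other.

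**Figure D2:**
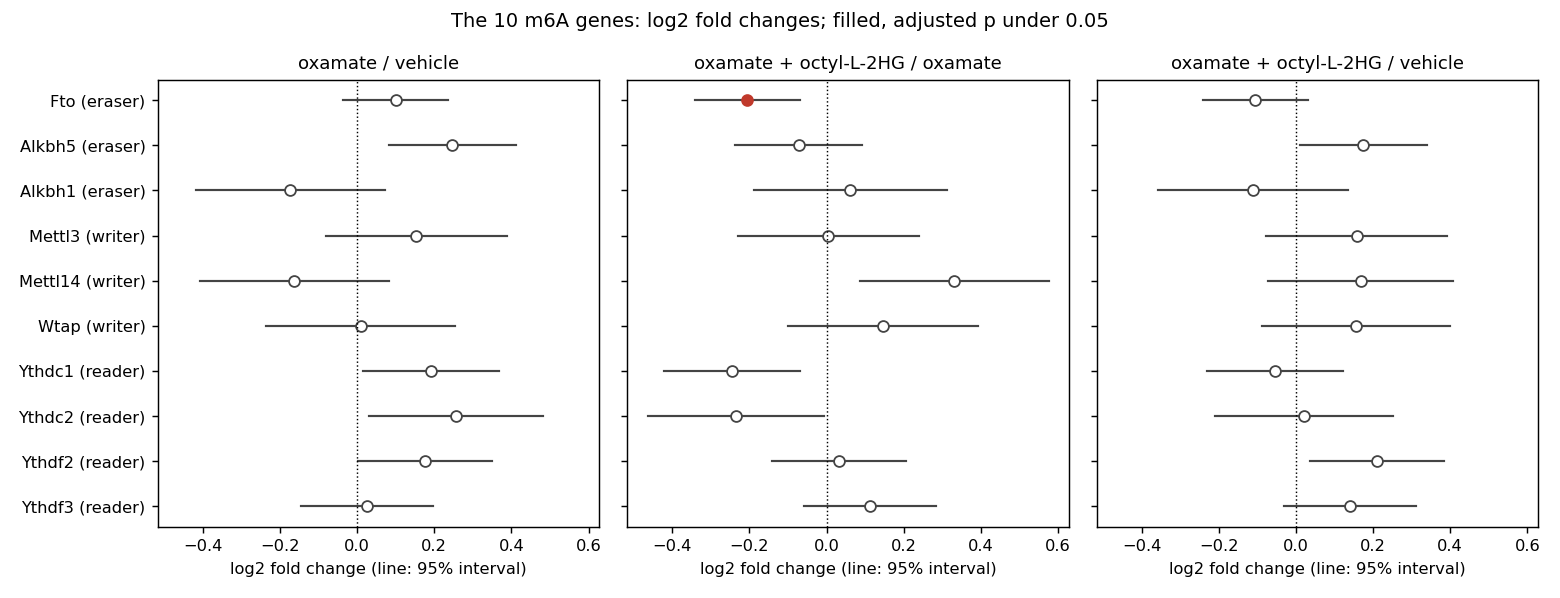
Log2 fold changes of the 10 m6A genes in the 3 comparisons, with lines for the 95% interval; filled points have an edgeR adjusted p under 0.05. Fto in oxamate with octyl-L-2HG against oxamate is the filled point, at -0.21, and all values lie between -0.25 and 0.33.

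Among the erasers, Fto (ENSMUSG00000055932), the first enzyme described to remove m6A, had 112, 108 and 117 CPM in vehicle, 126, 120 and 114 CPM in oxamate, and 102, 102 and 108 CPM in oxamate with octyl-L-2HG. The lowest oxamate library lay above the highest library with octyl-L-2HG, while the vehicle libraries overlapped both. Fto was lowered by octyl-L-2HG added to oxamate, with a log2 fold change of -0.21 (SE 0.07, edgeR adjusted p = 0.0454), which is 0.867-fold with a 95% interval of 0.789 to 0.953. Oxamate against vehicle gave 0.10 (SE 0.07, adjusted p = 0.472), and oxamate with octyl-L-2HG against vehicle gave -0.11 (SE 0.07, adjusted p = 0.303), or -0.06 without vehicle library 3. The call on Fto was narrow. It held in 7 of 16 alternative fits and in 3 of the 9 that left out a library, where the log2 fold change ranged from -0.24 to -0.17. It was lost without vehicle library 2 or 3, without oxamate library 5 and without any of the libraries 7, 8 and 9. Without oxamate library 4 the value was -0.17 (adjusted p = 0.0471). Fewer cells that express a gene and less of its RNA per cell cannot be told apart in these bulk samples.

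Alkbh5 (ENSMUSG00000042650), the other m6A eraser, had 54.3, 48.8 and 48.7 CPM in vehicle. Oxamate gave 67.8, 55.4 and 56.9 CPM, and oxamate with octyl-L-2HG gave 55.6, 58.2 and 57.5 CPM. All 6 treated libraries lay above the 3 vehicle libraries, with library 4 far above the rest. The log2 fold change was 0.25 (SE 0.08, edgeR adjusted p = 0.0769) for oxamate against vehicle and 0.15 without library 4. With octyl-L-2HG present it was 0.17 against vehicle (SE 0.08, adjusted p = 0.141) and -0.07 against oxamate (adjusted p = 0.655). None of these passed the threshold, and the 95% interval for oxamate against vehicle ran from 0.08 to 0.41. Oxamate against vehicle passed in 2 of 16 alternative fits, without vehicle library 1 (0.30, adjusted p = 0.0499) and without a filter on low counts (0.25, adjusted p = 0.0397). Oxamate with octyl-L-2HG against vehicle passed in 3 of 16. These were the fits without library 4 (0.17, adjusted p = 0.0249), without a filter (0.22, adjusted p = 0.0397) and with only the 2 groups (0.19, adjusted p = 0.0241).

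Alkbh1 (ENSMUSG00000079036) was far less abundant, with 5.27, 6.48 and 4.91 CPM in vehicle, 4.44, 5.21 and 5.10 in oxamate, and 4.93, 5.54 and 4.94 in oxamate with octyl-L-2HG. The groups overlapped in every comparison. Its log2 fold changes were -0.17 (SE 0.12, adjusted p = 0.498) for oxamate against vehicle, 0.06 (SE 0.12, adjusted p = 0.824) for oxamate with octyl-L-2HG against oxamate and -0.11 (SE 0.12, adjusted p = 0.587) for oxamate with octyl-L-2HG against vehicle. Oxamate against vehicle was -0.05 without vehicle library 2 and -0.26 without vehicle library 3, and oxamate with octyl-L-2HG against vehicle gave 0.01 and -0.18 in these fits. With 161 to 244 reads per library, the 95% interval for oxamate against vehicle reached from -0.42 to 0.07. Slirp, which shares exon bases with Alkbh1 on the opposite strand and had 1089 to 1971 reads, was lowered in oxamate with octyl-L-2HG against vehicle (-0.34, adjusted p = 0.00463). Its part in the Alkbh1 counts was not tested. The ratio of Fto to Alkbh5 per kilobase was 2.71 ± 0.198 in vehicle, 2.46 ± 0.187 in oxamate and 2.23 ± 0.0756 in oxamate with octyl-L-2HG (SD, n = 3), given as values with no test.

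Of the writers, Mettl3 (ENSMUSG00000022160), the catalytic subunit, had 7.39, 6.90 and 6.30 CPM in vehicle, 9.16, 6.79 and 6.92 CPM in oxamate, and 7.78, 7.37 and 7.81 CPM in oxamate with octyl-L-2HG. Library 4 again held the highest value, and the other 2 oxamate libraries lay within the range of vehicle. Oxamate against vehicle gave a log2 fold change of 0.15 (SE 0.11, edgeR adjusted p = 0.539) with library 4 and -0.0017 without it, 0.09 without vehicle library 3 and 0.23 without oxamate library 5. Oxamate with octyl-L-2HG gave 0.16 against vehicle (SE 0.11, adjusted p = 0.387) and 0.0039 against oxamate (adjusted p = 0.986), the latter with a 95% interval from -0.23 to 0.24. The overlapping gene Tox4 was not called in any comparison, with log2 fold changes of -0.08 for oxamate against vehicle, 0.14 for octyl-L-2HG added to oxamate and 0.06 for that group against vehicle.

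Mettl14 (ENSMUSG00000028114), the RNA-binding partner of METTL3, had 4.87, 5.73 and 4.98 CPM in vehicle and 4.26, 4.83 and 4.83 CPM in oxamate. With octyl-L-2HG added to oxamate it had 5.94, 6.55 and 5.07 CPM. All 3 oxamate libraries lay below the other 6. The log2 fold change was 0.33 (SE 0.12, adjusted p = 0.0759, 95% interval 0.09 to 0.58) for oxamate with octyl-L-2HG against oxamate, the widest difference of any member, and it did not pass, except without library 9 (0.43, adjusted p = 0.0453) or without a filter on low counts (0.38, adjusted p = 0.0274). Oxamate against vehicle gave -0.16 (adjusted p = 0.53), and oxamate with octyl-L-2HG against vehicle gave 0.17 (adjusted p = 0.36). The first was -0.09 without vehicle library 2, and the second was 0.08 without library 8 and 0.27 without library 9. Between 159 and 216 reads per library stood behind these values.

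Wtap (ENSMUSG00000060475), the adaptor of the writer complex, was the member with the fewest reads, 108 to 138 per library. It had 3.41, 3.05 and 3.31 CPM in vehicle, 3.40, 3.17 and 3.28 CPM in oxamate, and 3.64, 3.87 and 3.41 CPM in oxamate with octyl-L-2HG. The vehicle and oxamate libraries covered the same range, and the last group lay just above both. The log2 fold changes were 0.0093 for oxamate against vehicle (95% interval -0.24 to 0.25), 0.15 for oxamate with octyl-L-2HG against oxamate and 0.16 against vehicle, with adjusted p from 0.41 to 0.978. The per-kilobase ratio of Mettl3 to Mettl14 was 5.91 ± 1.5 in oxamate, where library 4 had 7.64 and libraries 5 and 6 had 5.00 and 5.10, and 4.71 ± 0.741 in oxamate with octyl-L-2HG. Without library 4 the oxamate ratios therefore lay within the vehicle range of 4.28 to 5.39.

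Among the readers, Ythdc1 (ENSMUSG00000035851), the nuclear reader that is linked to splicing and export of marked transcripts, had 91.2, 110 and 112 CPM in vehicle, 105.6, 125.9 and 126.2 CPM in oxamate, and 107, 100.0 and 94.3 CPM in oxamate with octyl-L-2HG. Unlike Alkbh5 and Mettl3, it had its lowest oxamate value in library 4, which overlapped the other groups. The log2 fold change was 0.19 for oxamate against vehicle (SE 0.08, edgeR adjusted p = 0.24) and -0.25 for oxamate with octyl-L-2HG against oxamate (SE 0.09, adjusted p = 0.0672). Without library 4 both passed, at 0.27 (adjusted p = 0.0099) and -0.33 (adjusted p = 0.000936), and the second also passed without vehicle library 1 (adjusted p = 0.034). The first did not: without vehicle library 1, oxamate against vehicle was 0.10 (adjusted p = 0.627). Against vehicle, oxamate with octyl-L-2HG gave -0.05 (adjusted p = 0.73, 95% interval -0.23 to 0.12).

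Ythdc2 (ENSMUSG00000034653), the helicase of meiotic germ cells, had 6.80, 9.13 and 8.37 CPM in vehicle, 8.92, 9.26 and 10.9 CPM in oxamate, and 7.96, 7.999 and 8.64 CPM in oxamate with octyl-L-2HG. Its oxamate libraries all lay above those with octyl-L-2HG and overlapped vehicle. As for Ythdc1, the oxamate mean was the highest of the 3 groups, with 0.26 (SE 0.11, adjusted p = 0.213) for oxamate against vehicle, -0.24 (SE 0.11, adjusted p = 0.194) for oxamate with octyl-L-2HG against oxamate and 0.02 (SE 0.11, adjusted p = 0.934) against vehicle. None passed the test. Oxamate against vehicle was 0.14 without vehicle library 1 and 0.17 without oxamate library 6, and octyl-L-2HG added to oxamate gave -0.15 without oxamate library 6. The 6 spermatocyte markers (Sycp1, Sycp3, Hormad1, Dmc1, Spo11 and Meiob), given because Ythdc2 is a gene of meiotic cells, were not called in any comparison either.

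The cytoplasmic reader Ythdf2 (ENSMUSG00000040025), linked to decay of marked RNA, had 14.6, 13.5 and 14.9 CPM in vehicle, 17.1, 15.9 and 15.8 CPM in oxamate, and 18.0, 16.1 and 15.8 CPM in oxamate with octyl-L-2HG. All 6 treated libraries lay above the vehicle libraries. The log2 fold change against vehicle was 0.18 with oxamate (SE 0.08, adjusted p = 0.28) and 0.21 with both agents, that is oxamate with octyl-L-2HG (SE 0.08, adjusted p = 0.0906, 95% interval 0.04 to 0.38). Adding octyl-L-2HG to oxamate gave 0.03 (adjusted p = 0.875). Both agents against vehicle passed in 3 of 16 alternative fits: without library 4 (0.21, adjusted p = 0.0344), without a filter (0.255, adjusted p = 0.0456) and with only the 2 groups (0.225, adjusted p = 0.0338).

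Ythdf3 (ENSMUSG00000047213), the paralog known to work with the other YTHDF readers, showed 15.2, 15.6 and 14.1 CPM in vehicle and 14.2, 16.4 and 15.1 CPM in oxamate, which overlapped. With octyl-L-2HG added it showed 16.8, 16.3 and 16.4 CPM, above every vehicle library. The log2 fold changes were 0.03 (SE 0.08, adjusted p = 0.921), 0.11 (SE 0.08, adjusted p = 0.455) and 0.14 (SE 0.08, adjusted p = 0.272) for oxamate against vehicle, both agents against oxamate and both agents against vehicle. The 95% interval for oxamate against vehicle was -0.14 to 0.20.

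Other values of the members that moved by over 1.5 times without oxamate library 4 stayed short of the threshold. For oxamate against vehicle the log2 fold change was then 0.06 for Fto, -0.10 for Alkbh1, -0.10 for Mettl14, -0.02 for Wtap and 0.07 for Ythdf3. For octyl-L-2HG added to oxamate it was 0.02 for Alkbh5, -0.0080 for Alkbh1, 0.16 for Mettl3, 0.07 for Ythdf2 and 0.07 for Ythdf3. Without oxamate library 5, octyl-L-2HG added to oxamate gave -0.13 for Alkbh5 and 0.11 for Alkbh1, and without library 8 it gave 0.0059 for Alkbh1.

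Their paralog Ythdf1, linked to translation of marked transcripts and part of the wider list of m6A pathway genes described next, differed from vehicle by more than any of the 10 members, in oxamate and with both agents. It had 12.1, 12.1 and 11.0 CPM in vehicle, 21.04, 16.9 and 17.2 CPM in oxamate, and 15.2, 14.4 and 15.3 CPM in oxamate with octyl-L-2HG. The groups did not overlap in any comparison. Ythdf1 rose with oxamate by 0.65 on the log2 scale (SE 0.09, edgeR adjusted p = 0.000156), fell by 0.30 when octyl-L-2HG was added (SE 0.09, adjusted p = 0.0356), and stayed above vehicle by 0.35 (SE 0.09, adjusted p = 0.0106). The rise with oxamate and the difference of both agents from vehicle passed in all 16 alternative fits. The fall with octyl-L-2HG passed in 9 of 16. It did not pass without vehicle library 3, oxamate library 4 (-0.19) or any of the libraries 7, 8 and 9. Per kilobase, Ythdf1 made up 36.5% ± 1.197 of the summed level of the 3 paralogs in vehicle, 45.4% ± 3.06 in oxamate and 39.3% ± 1.16 in oxamate with octyl-L-2HG (SD, n = 3). As the shared runs of at most 22 bases above show, no 75-base stretch of Ythdf1 matches Ythdf2 or Ythdf3.

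**Figure D3:**
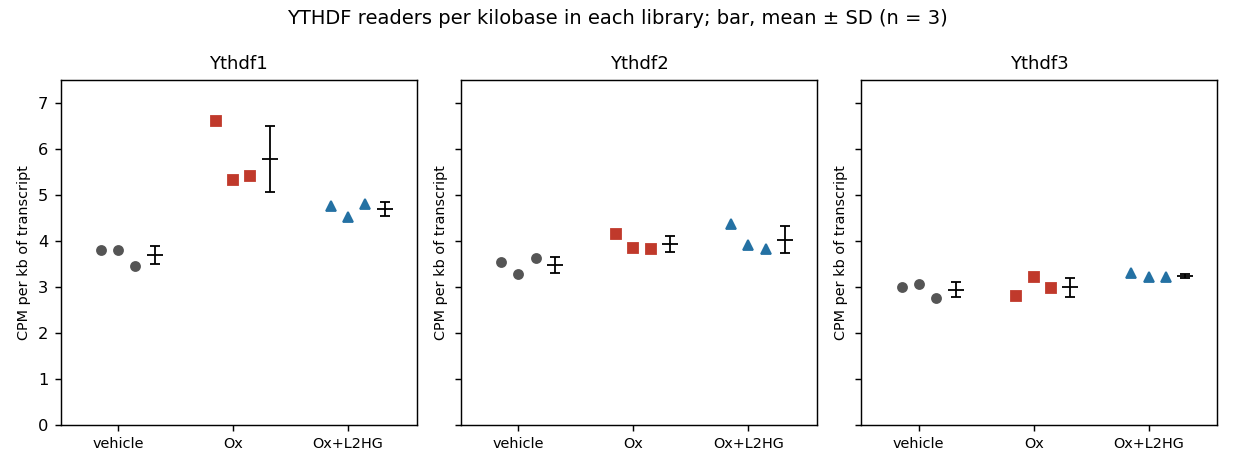
Levels per kilobase of transcript (CPM per kb, linear axis from 0) of the readers Ythdf1, Ythdf2 and Ythdf3 in the 9 libraries; points are libraries and bars show mean ± SD of 3. Ythdf1 lies at 3.46 to 3.80 in vehicle and 5.31 to 6.61 in oxamate, with 4.52 to 4.80 after octyl-L-2HG, whereas Ythdf3 stays between 2.76 and 3.29.

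Beyond the 10 members, a list of 35 further genes of the pathway was tested: 11 writers, 15 readers and their partners, 6 other AlkB dioxygenases and 3 genes of methyl donor supply. The list was chosen with earlier results of these data known, so its counts beside those of all genes are descriptive. With oxamate alone, 3 of 35 were raised over vehicle (Ythdf1, Cbll1 and Igf2bp1) and 0 lowered, with 3 calls by DESeq2 as well, around a median of -0.01, where 3.96% of all genes were raised and 1.22% lowered. At an unadjusted p under 0.05, edgeR gave 7 higher and 2 lower, against 17.3% of all genes in either direction. For both agents against oxamate, 2 were raised (Meioc and Cnot1) and 2 lowered (Ythdf1 and Trmt112), with a median of 0.02, beside 3.18% and 8.06% of all genes. Both agents against vehicle gave 9 raised and 5 lowered genes and a median of 0.10, beside backgrounds of 7.48% and 10.6%. Of the 10740 genes with a mean of at least 100 normalized counts, 1712 were raised and 1459 lowered in that comparison, which are larger shares.

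Among the further writers, Cbll1, the HAKAI subunit of the METTL3 complex, was raised by oxamate (0.40, SE 0.07, edgeR adjusted p = 0.0014) and remained above vehicle with both agents (0.23, adjusted p = 0.0286). It had 42.3, 43.6 and 44.5 CPM in vehicle and 55.2, 57.1 and 59.3 CPM in oxamate, 2 sets that lie well apart. Virma, the large scaffold of the same complex, was raised only for both agents against vehicle (0.20, adjusted p = 0.0352), and the difference between its comparisons was not tested. Trmt112, the partner of METTL5 and of several other methyltransferases, was lowered by octyl-L-2HG added to oxamate (-0.37, adjusted p = 0.036) and for both agents against vehicle (-0.51, adjusted p = 0.00252). The first of these calls held in 7 of 16 alternative fits and in 2 of the 9 without a library (without vehicle library 1 or oxamate library 6), and the value was -0.23 without oxamate library 4 (adjusted p = 0.113). Zcchc4, the m6A methyltransferase of 28S ribosomal RNA, was lowered for both agents against vehicle (-0.66, adjusted p = 0.00877), on 40 to 81 reads per library. The remaining 7 writers of the list were not called in any comparison.

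Of the 15 readers and partners, 7 were raised for both agents against vehicle and 1 was lowered, beside 7.48% and 10.6% of all genes. The 7 were Ythdf1, Igf2bp1, Igf2bp2, Meioc, Rbm46, Xrn1 and Cnot1. Of the 10740 genes with a mean of at least 100 normalized counts, 1712 were raised and 1459 lowered there. The transcripts of the 7 run from 2115 bases (Rbm46) to 10256 (Xrn1), and fold changes moved with transcript length, as given below. Meioc, which binds YTHDC2 in meiotic cells, had 34.3, 46.0 and 40.1 CPM in vehicle, 37.0, 50.2 and 49.95 CPM in oxamate, and 58.7, 60.6 and 57.5 CPM with both agents. The last group lay above all other libraries. Meioc rose by 0.37 against oxamate (SE 0.10, adjusted p = 0.0248) and by 0.55 against vehicle (SE 0.10, adjusted p = 0.000615). Without library 4 the first value was 0.24 (adjusted p = 0.0352), and oxamate against vehicle then also passed, at 0.32 (adjusted p = 0.00744), whereas it was 0.09 without vehicle library 1 (adjusted p = 0.771). The rise against oxamate did not pass without library 7, 8 or 9 (adjusted p = 0.0927, 0.109 and 0.0726), nor when scaled by total counts (0.32, adjusted p = 0.0741). Rbm46, an RNA-binding protein of the same complex, and Xrn1, the exonuclease that binds YTHDC2, rose for both agents against vehicle by 0.37 (adjusted p = 0.0154) and 0.32 (adjusted p = 0.0184). The Ythdc2 log2 fold change in that comparison was 0.02, as given above. All 6 spermatocyte markers were without a call there too. The difference between Ythdc2 and its partners was not tested.

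Cnot1, the scaffold of the CCR4-NOT deadenylase that YTHDF2 recruits, was the most abundant gene of those named, with 1031 to 1146 CPM in vehicle, 1037 to 1131 CPM in oxamate and 1249 to 1288 CPM with both agents. It rose by 0.23 against oxamate (SE 0.06, adjusted p = 0.016) and by 0.22 against vehicle (SE 0.06, adjusted p = 0.0147). Of the IGF2BP readers, linked to stability of marked RNA, Igf2bp1 was raised by oxamate (0.31, adjusted p = 0.0292) and for both agents against vehicle (0.28, adjusted p = 0.0223), and Igf2bp2 for both agents against vehicle (0.76, adjusted p = 0.0196) on 21 to 46 reads per library. The Igf2bp1 calls held in 8 and 10 of 16 alternative fits, and in 3 and 5 of the 9 that left out a library. For the Igf2bp2 call these counts were 12 and 5. Hnrnpc, a nuclear RNA-binding protein whose access to RNA m6A can alter, was lowered for both agents against vehicle (-0.37, adjusted p = 0.00191).

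The 6 other AlkB dioxygenases all lay below 0 on the log2 scale when oxamate was set against vehicle (median -0.19), as did 13064 of all 25128 genes, and none was called. At an unadjusted p under 0.05, 1 of them lay lower, against 17.3% of all genes in either direction. Alkbh2, Alkbh3, Alkbh4, Alkbh6 and Alkbh7 have short transcripts, of 917 to 1773 bases, and Alkbh8 has a long one of 7674. Genes with short transcripts also lay lower as a class, as given below. Under both agents, 2 of the 6 were lowered against vehicle, beside 10.6% of all genes: Alkbh8, which modifies wobble uridines of transfer RNA (-0.66, SE 0.15, adjusted p = 0.00278), and the mitochondrial Alkbh7 (-0.45, SE 0.12, adjusted p = 0.0101). The Alkbh7 call held in 13 of 16 alternative fits and in 7 of the 9 that left out a library, where the value ranged from -0.51 to -0.31. For comparison, the members Fto, Alkbh5 and Alkbh1 gave -0.11, 0.17 and -0.11 there, none of which passed. The methyl donor genes Mat2a, Mat2b and Ahcy, which make S-adenosylmethionine and clear its product, were not called in any comparison.

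The further genes had 21 calls over the 3 comparisons, of which 7 held in all 16 alternative fits: Ythdf1 and Cbll1 for oxamate against vehicle, and Ythdf1, Meioc, Hnrnpc, Trmt112 and Alkbh8 for both agents against vehicle. The other 14 were lost without at least 1 library. These include the call on Meioc against oxamate (lost without any of 7, 8 and 9), on Cnot1 against oxamate (lost without oxamate library 5 or any of 7, 8 and 9), on Xrn1 (vehicle 1 or 3, or any of 7, 8 and 9), on Rbm46 (vehicle 1, 7 or 9) and on Virma (any vehicle library or any of 7, 8 and 9).

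**Figure D4:**
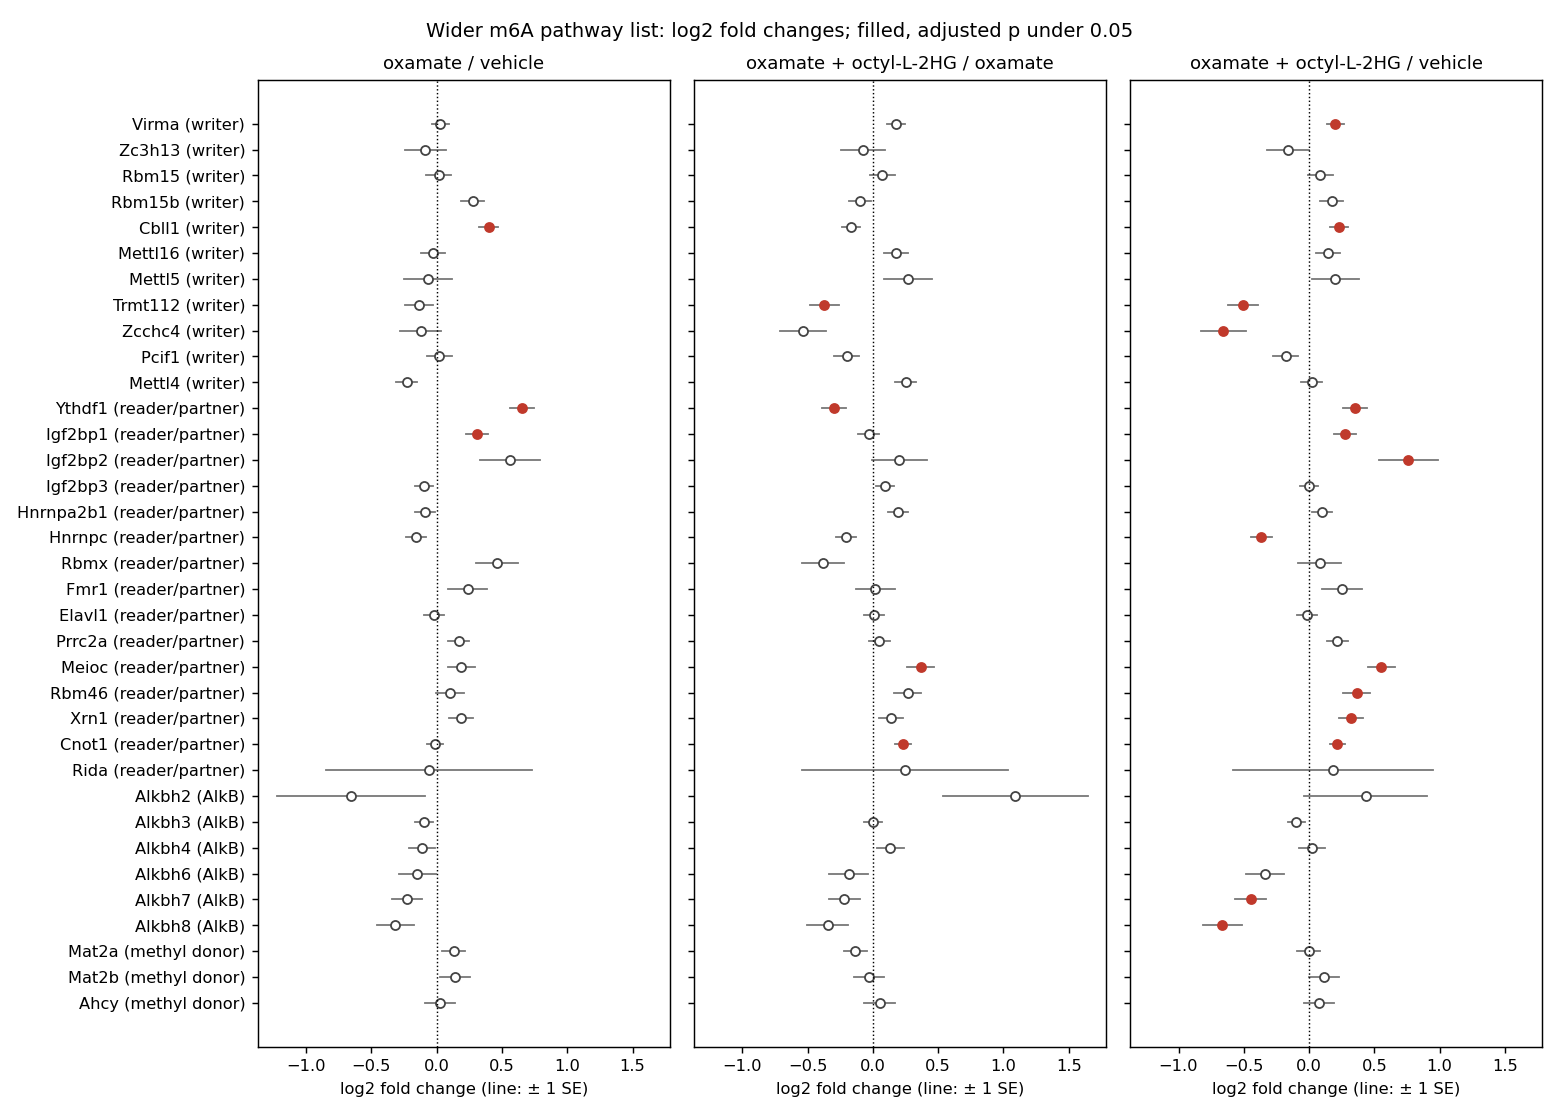
Log2 fold changes of the 35 further m6A pathway genes, by role, in the 3 comparisons; lines show 1 SE and filled points have an edgeR adjusted p under 0.05. Filled points number 3, 4 and 14 from left to right, with Ythdf1 filled in all 3 panels.

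Across genes, the fold changes moved with transcript length. Over the 10721 genes with a mean of at least 100 normalized counts and a known length, Spearman's rho between length and log2 fold change was 0.35 for oxamate against vehicle, 0.15 for both agents against oxamate and 0.36 for both agents against vehicle, across genes, which are not independent replicates. The transcripts of the members are mostly long, from 2025 bases for Mettl3 to 7215 for Ythdc2. In both agents against vehicle, genes in the longest 3 of 10 length classes had medians of 0.11 to 0.14, beside the members' median of 0.15. Not all members are that long. The classes with median lengths of 2034, 3026 and 3632.5 bases, nearer Mettl3, Wtap, Ythdc1 and Alkbh1, had medians of 0.02, 0.07 and 0.09. Alkbh5, Ythdf2, Ythdf3, Mettl3, Mettl14 and Wtap lay near or above this trend there, and Fto, Alkbh1, Ythdc1 and Ythdc2 lay below it. In the shortest 3 classes the medians were -0.10 to -0.03 for oxamate against vehicle and -0.16 to -0.03 for both agents against vehicle. Of the further genes lowered with both agents against vehicle, Alkbh7 (917 bases) and Trmt112 (985) are short. Hnrnpc (2847), Zcchc4 (5743) and Alkbh8 (7674) are longer. With an offset for transcript length, added after the data were seen, Fto passed for both agents against vehicle (-0.19, adjusted p = 0.0401) and against oxamate (-0.20, adjusted p = 0.0341), and no other member passed in any pairwise comparison. The offset lowered every member's value for oxamate against vehicle, to 0.02 for Fto and 0.15 for Alkbh5. For both agents against vehicle it lowered all but Mettl3, to 0.08 for Alkbh5, 0.07 for Mettl14 and 0.05 for Ythdf3.

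**Figure D5:**
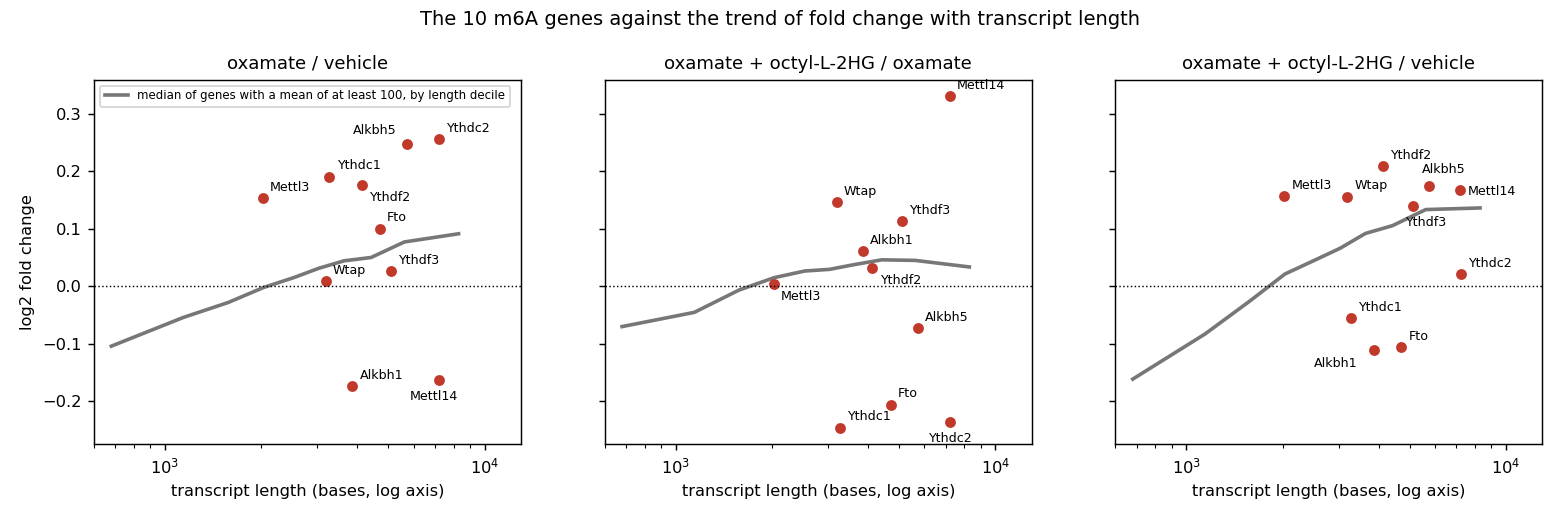
Log2 fold changes of the 10 m6A genes (points) against transcript length in bases (log axis) in the 3 comparisons; the line joins the medians of 10 length classes of genes with a mean of at least 100 normalized counts. For both agents against vehicle the line climbs from -0.16 to 0.14, and Fto, at -0.11, lies below it.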

How the data were processed

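RNA of RS cells was measured in 9 libraries, 3 per group. The authors trimmed reads with cutadapt 2.10, aligned them with TopHat2 2.1.1 (the submitters' processing notes name GRCm39) and deposited raw counts per gene from HTSeq 2.01, beside a normalized signal, the count divided by a DESeq2 1.36.0 size factor, which was not used in any test. Counts were blank for 6250 of 55414 genes. There were 0 unused columns of sample values.

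Groups came from the labels. Genes with at least 10 counts in all (25128) entered the tests in R 4.3.3 with edgeR 4.0.16: TMM normalization, a robust quasi-likelihood fit of all 9 libraries with group as the only term, and Benjamini-Hochberg adjustment over all genes tested. CPM are counts scaled to 1000000 reads of the TMM-scaled library size, and intervals for fold changes are 95% intervals. DESeq2 1.42.0, other scalings and filters, a threshold of 0.01, fits of 2 groups only and leaving out each library were alternatives, and an offset for transcript length was added after the data were seen. The test was tested on simulated data.

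The members and lists were chosen with earlier results of these data known. The genes named are all members, Ythdf1, and genes of the list of 35 called in at least 1 pairwise comparison, up to 16 by p for any difference. Transcript lengths, overlaps and sequences come from GENCODE M21 on GRCm38, another annotation than the authors', and no coordinates were taken from it.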

Additional observations from a re-analysis of the deposited data

How the results depend on the processing

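No paired analysis was possible because the groups share no replicate numbers. Members called for oxamate against vehicle numbered 1 without a filter (0 in the report) and 0 to 1 when a library was left out. For both agents against oxamate (1 in the report) there were 0 at a threshold of 0.01, 0 with DESeq2 size factors, 2 with total counts, 0 with only the 2 groups fitted, and 0 to 2 without a library. Both agents against vehicle (0) gave 2 without a filter, 2 with only the 2 groups, 1 with the length offset, and 0 to 2 without a library. For any difference (0) there was 1 with DESeq2, total counts, no filter or the length offset, and 0 to 3 without a library, the 3 without oxamate library 4.

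Of the 35 further genes, calls for oxamate against vehicle (3) numbered 5 without a filter and 2 to 8 without a library, the 8 without oxamate library 4. Both agents against oxamate (4) gave 0 at 0.01, 7 with filterByExpr and 0 to 9 without a library: 0 without library 7, 8 or 9, 2 without oxamate library 5 and 9 without oxamate library 4. Both agents against vehicle (14) gave 5 at 0.01, 8 with total counts, 8 with the length offset and 6 to 16 without a library, with 7 without vehicle library 1 and 6, 8 and 9 without libraries 7, 8 and 9. For any difference (13) they numbered 6 at 0.01 and 6 to 19 without a library, with 6, 8 and 7 without libraries 7, 8 and 9.

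Log2 fold changes near 0 changed sign. With total counts these were Mettl3 (-0.039) and Ythdf2 (-0.012) for both agents against oxamate, Wtap (-0.0096) for oxamate against vehicle and Ythdc2 (-0.043) for both agents against vehicle. With the length offset they were Wtap (-0.047), Ythdf3 (-0.065) and Virma (-0.075) for oxamate against vehicle and Ythdc2 (-0.077) for both agents against vehicle, and without a filter Igf2bp1 (0.012) for both agents against oxamate. Without a library, oxamate against vehicle ranged from -0.0017 to 0.23 for Mettl3, -0.035 to 0.044 for Wtap, -0.028 to 0.075 for Ythdf3 and -0.051 to 0.020 for Cnot1. Both agents against oxamate ranged from -0.13 to 0.024 for Alkbh5, -0.0080 to 0.11 for Alkbh1, -0.075 to 0.16 for Mettl3, -0.028 to 0.071 for Ythdf2 and -0.065 to 0.0050 for Igf2bp1. Both agents against vehicle ranged from -0.18 to 0.013 for Alkbh1, -0.14 to 0.013 for Ythdc1 and -0.091 to 0.12 for Ythdc2. None of these reversed values was called. Of the named genes' other values under the alternatives, 1010 kept their direction and side of the threshold, 85 lost a call and 29 gained one. The causes were not tested. The writers Mettl14 and Wtap and the eraser Alkbh1, with 108 to 244 reads per library, had standard errors of 0.12 on the log2 scale, against 0.07 for Fto.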
